A study of Mus musculus with 8 samples.

Results

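In mouse embryonic stem cells, 17729 binding sites of the DNA-binding protein CTCF carried cohesin in wild-type cells and kept a CTCF peak in a knock-in line called C59, but had no cohesin peak there. These sites were selected on measured values, namely 4 deposited peak lists. A peak of the wild-type (WT) CTCF list on one of the 19 numbered autosomes was taken when it overlapped a C59 CTCF peak and a WT peak of the cohesin subunit Smc3 by at least 1 bp and overlapped no C59 Smc3 peak. The rule picked 18.4% of the 96324 WT CTCF peaks on these chromosomes, out of 98759 in the whole list. Among the 41703 CTCF sites shared by the lines that carried WT Smc3, the sites without C59 Smc3 made up 42.5% (95% interval 42.0 to 43.0), and the other 23974, with Smc3 in both lines, are called kept sites. Smc3 was found in neither line at a further 34983 shared sites and in C59 alone at 252. A site is said to have lost Smc3 when the authors' C59 list held no peak there, which does not show that no Smc3 was bound. How many sites met the rule depended on how the lists were cut. With each list held to the 25734 peaks of lowest p-value, the length of the C59 Smc3 list, 1658 sites met it, 8.96% of 18506. That cut shortened only the other lists, so the number could only fall. With peaks of a minus log10 q of at least 10 in every list, 14542 sites met the rule, 49.0% of 29650. List length and peak strength cannot be told apart in these cuts.

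CTCF uses zinc fingers to read a long, directional DNA motif at insulators and at the anchors of chromatin loops. Cohesin is a ring built on Smc1a, Smc3 and Rad21 that travels along chromatin, extrudes loops and is held up where it meets bound CTCF in the right orientation. In embryonic stem cells most cohesin peaks lie on CTCF sites, and CTCF can stay on its motif when cohesin is removed.

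C59 cells were homozygous for FLAG-Halo-CTCF and for Rad21-SNAPf-V5, both encoded at the endogenous genes, and stood for 1 clone. WT cells were the untagged JM8.N4 line. Both lines were grown without feeders in serum and LIF and cross-linked with formaldehyde, and each gave 1 chromatin immunoprecipitation and sequencing (ChIP-seq) library for CTCF and 1 for Smc3, beside input and IgG libraries that were not analysed here. The antibody label of each cohesin library names Smc3, whereas the extraction protocol names Rad21, the protein that carries a tag in C59. The lists hold no expression values, so the cell type was taken from the labels. With 1 library for each line and protein there were no replicates, no difference was tested, and intervals are exact Clopper-Pearson intervals that cover counting error only. Peak strength is the authors' fold enrichment, the ratio of the read pileup at the summit to the local background, and describes peaks only within their own list. The pileup steps and lowest backgrounds of the lists gave relative library depths of 1.00 for C59 CTCF, 1.25 for C59 Smc3, 1.15 for WT CTCF and 1.12 for WT Smc3. Depth does not measure how well an immunoprecipitation enriched its protein. Kept sites had a median Smc3 fold of 5.8 in C59 and 8.4 in WT, each on the scale of its own list. The part of depth or enrichment in the missing C59 Smc3 peaks was not tested.

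Some of the sites that lost Smc3 held a match to the CTCF motif in a gene promoter, though most sites with a summit in a promoter did not. RefSeq promoter sequences of the build GRCm38.p6, with the chromosomes of mm10, were at hand for 18 of the 19 autosomes. In 54 sites a match to the degenerate 12-letter CTCF core lay within 60 bp of the WT CTCF summit. The windows below show promoters of 5 genes whose sites lay high in WT Smc3 fold among these 54, and of Dnm1, Rplp0 and Kif1b, whose values follow. They run along the strand of the core, 5′ to 3′, with the core in capitals. Scap encodes the escort protein of the sterol-sensing SREBP factors (chr9:110333235-110333282, plus strand), and B3glct a glucosyltransferase (chr5:149678193-149678240, plus strand). Ext2 encodes a polymerase of heparan sulfate (chr2:93822575-93822622, minus strand), Faf2 a factor of protein degradation at the endoplasmic reticulum (chr13:54621656-54621703, minus strand) and Nmur1 a receptor of neuromedin U (chr1:86389453-86389500, plus strand). Dnm1 encodes a dynamin, a GTPase of endocytosis (chr2:32353343-32353390, plus strand), Rplp0 a protein of the ribosomal stalk (chr5:115559272-115559319, plus strand) and Kif1b a kinesin motor (chr4:149307895-149307942, minus strand).
Scap: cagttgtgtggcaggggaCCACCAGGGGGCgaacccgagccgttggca
B3glct: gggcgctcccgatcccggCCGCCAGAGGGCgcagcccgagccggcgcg
Ext2: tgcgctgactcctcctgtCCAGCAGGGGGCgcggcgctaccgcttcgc
Faf2: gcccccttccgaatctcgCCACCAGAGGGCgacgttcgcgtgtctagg
Nmur1: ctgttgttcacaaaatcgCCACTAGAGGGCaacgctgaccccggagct
Dnm1: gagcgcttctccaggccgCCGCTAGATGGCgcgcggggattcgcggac
Rplp0: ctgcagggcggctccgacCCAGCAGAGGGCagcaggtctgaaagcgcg
Kif1b: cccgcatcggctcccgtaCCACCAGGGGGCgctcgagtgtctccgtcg

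Kept sites are shown for comparison by the promoters of Nudt17, which encodes a Nudix hydrolase (chr3:96708548-96708595, minus strand), and Rab32, which encodes a small GTPase of organelle traffic (chr10:10558262-10558309, minus strand). They carry the same cores as the sites at Scap and Ext2.
Nudt17: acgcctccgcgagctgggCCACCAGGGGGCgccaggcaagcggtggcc
Rab32: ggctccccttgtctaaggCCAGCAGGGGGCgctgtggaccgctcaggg

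At Scap the CTCF fold was 29.1 in C59 and 49.8 in WT, and the WT Smc3 fold was 8.33, with the nearest C59 Smc3 peak 27837 bp away. Kif1b, with the same core, had CTCF folds of 40.2 in C59 and 41.6 in WT and a WT Smc3 fold of 5.48, with the nearest C59 Smc3 peak 78418 bp away. At Nudt17, a kept site with this core, the CTCF fold was 51.5 in C59 and 49.9 in WT, and the WT Smc3 fold was 17.4. All 3 promoters held strong CTCF in WT. Nudt17 held the most WT Smc3 of them, and also of the 16 kept windows with this core. Those windows ranged down to a WT Smc3 fold of 4.07 at Noc3l, below Scap and Kif1b. At Ext2 the CTCF fold was 47.8 in C59 and 42.5 in WT beside a WT Smc3 fold of 6.98, and at Rab32 it was 41.5 in C59 and 40.02 in WT beside a WT Smc3 fold of 15.7. Among all such windows, 20 different cores stood at the 54 windows of sites that lost Smc3 and 27 at 119 windows of kept sites. Of these cores 19 were found in both classes, and they made up 52 of the 54 windows and 96 of the 119. The degenerate core varies at few letters, so much of this sharing follows from the search itself. The larger number of kept windows also bears on these shares. The core of Scap, CCACCAGGGGGC, stood in 6 windows that lost Smc3 and in 16 that kept it, and that of Ext2 and Rab32, CCAGCAGGGGGC, in 6 and 4. Among the latter 4, the WT Smc3 fold ran from 7.5 at Rasgrp2 to 15.7 at Rab32.

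Motif matches were fewer at sites that lost Smc3 than at kept sites. Both strands of each promoter, from 250 bases before the start to 50 after it, were searched for the motif. A site counted as having a match when any promoter that held its WT CTCF summit had one. The full core was found at 14.6% (11.5 to 18.3) of 437 sites that lost Smc3 and 25.9% (22.1 to 30.1) of 478 kept sites. It was found at 5.19% (3.74 to 7.01) of 770 shared sites without Smc3 and in 0.994% of all 31396 promoters. The shorter string CCANNAGGG overlaps the core in its left and middle letters. It was found at 11.2% (8.41 to 14.6) of these sites that lost Smc3, 19.7% (16.2 to 23.5) of kept sites, 11.3% of sites without Smc3 and in 6.06% of all promoters. The looser CCANNAGNG, which includes every match of CCANNAGGG, was found in 31.8%, 41.2%, 29.1% and 18.01% in that order. For the core the sites that lost Smc3 thus lay between the kept sites and the sites without Smc3. A promoter without a match lacks only these letters in this window. Promoters at sites that lost Smc3 held a median of 20 CpG, against 15 at kept sites, 22 at sites without Smc3 and 7 in all promoters, and the part of base composition in these shares was not tested. Around the core, the WT CTCF summit had a median offset of -5.5 bp at sites that lost Smc3 and -7.5 bp at kept sites, where a negative value lies toward the 5′ side of the core. The WT Smc3 summit lay at a median of -0.5 bp (quartiles -61.75 and 25.5) at 54 sites that lost Smc3 and at 5 bp (-21 and 25) at 118 kept sites. The lower quartile thus lay farther from the core at sites that lost Smc3, while the upper quartiles were close. These sites were not matched for WT Smc3 fold.

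The sites that lost Smc3 were weaker CTCF sites than the kept ones and stronger than those without Smc3. Their median CTCF fold was 12.7 in C59 (quartiles 8.08 and 19.6) and 14.8 in WT (10.3 and 21.2). For kept sites the medians were 27.6 in C59 and 26.0 in WT, and for shared sites without Smc3 they were 6.33 in C59 and 7.13 in WT. Within its own list, the median site that lost Smc3 stood at the percentile 53.9 of C59 CTCF folds, 64.4 of WT CTCF folds and 30.1 of WT Smc3 folds. Kept sites stood at 81.9, 84.5 and 73.0. The WT Smc3 fold had a median of 4.43 at sites that lost Smc3 (lowest 1.92, highest 17.2) and 8.4 at kept sites (lowest 2.1, highest 41.5), and the ranges overlapped widely. Their Smc3 peaks were narrower too, with a median of 365 bp against 576 bp. Most were single sites, since 17434 overlapped 1 WT Smc3 peak and 17373 overlapped 1 C59 CTCF peak. As the rule asks for the absence of a C59 Smc3 peak, these strengths describe the selection.

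The share that lost Smc3 declined with WT Smc3 strength. Cut into deciles of WT Smc3 fold, the 41703 sites lost Smc3 at 88.2% in the weakest decile (median fold 3.26), 63.9% in the fourth (5.04), 48.0% in the fifth (5.78), 18.3% in the seventh (7.75) and 0.528% in the strongest (14.8). Kept sites of the weakest decile had a median C59 Smc3 fold of 4.21, near the 10th percentile of the whole C59 Smc3 list, 3.77, whereas those of the strongest decile had 9.0. Sites with weak WT Smc3 therefore lay close to the lower end of the C59 list even where they were kept. At equal WT Smc3 fold, sites with less CTCF in C59 lost Smc3 more often. In the fifth WT Smc3 decile the share was 91.3% (87.3 to 94.3) in the weakest C59 CTCF decile, 39.9% (35.6 to 44.3) in the fifth and 16.0% (11.9 to 20.8) in the strongest. In the weakest WT Smc3 decile it was 96.9% (95.8 to 97.8) and 67.3% (57.5 to 76.0) at the weakest and strongest C59 CTCF. The same order was seen when WT Smc3 was ranked by pileup in place of fold, with a median C59 CTCF fold of 16.9 at sites that lost Smc3 and 22.9 at kept sites in the fifth pileup decile. In the weakest fold decile the WT Smc3 background was 5.94 at sites that lost Smc3 and 8.29 at kept sites, and its part in the result was not tested.

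**Figure D1:**
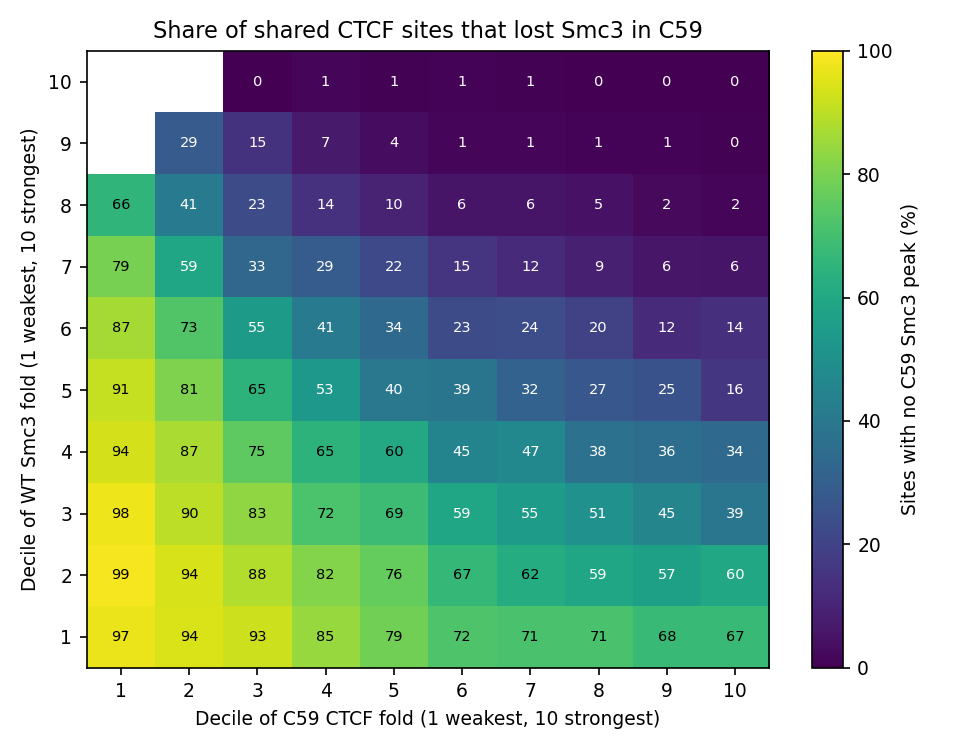
Percent of shared CTCF sites with WT Smc3 that had no C59 Smc3 peak, by decile of C59 CTCF fold (horizontal axis) and of WT Smc3 fold (vertical axis), with the rounded percent written in each cell. Cells with under 20 sites are blank. The share was 96.9% where both folds were weakest and declined toward strong WT Smc3 and toward strong C59 CTCF.

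CTCF itself was weaker in C59 at the sites that lost Smc3 than at kept sites of the same WT CTCF fold. In the fifth decile of WT CTCF fold, where the WT medians were 20.0 at sites that lost Smc3 and 20.2 at kept sites, the C59 CTCF medians were 17.9 (quartiles 14.2 and 21.7) and 23.1 (18.5 and 29.0). In the weakest decile they were 6.28 and 9.07, and in the strongest 33.7 and 37.7. The median was lower at sites that lost Smc3 in all 10 deciles, and it was so in 10 of 10 under each of the 7 alternative overlap, threshold and chromosome settings. When sites were sorted by WT CTCF and WT Smc3 fold together, 71 cells of the grid held at least 20 sites of each class, and the C59 CTCF median was lower at sites that lost Smc3 in 71 of them. Quartiles of the classes overlapped in every decile of WT CTCF. The sources do not say which control was used for peak calling. Whether both lists of a line shared it, and its part in these differences, was not tested.

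**Figure D2:**
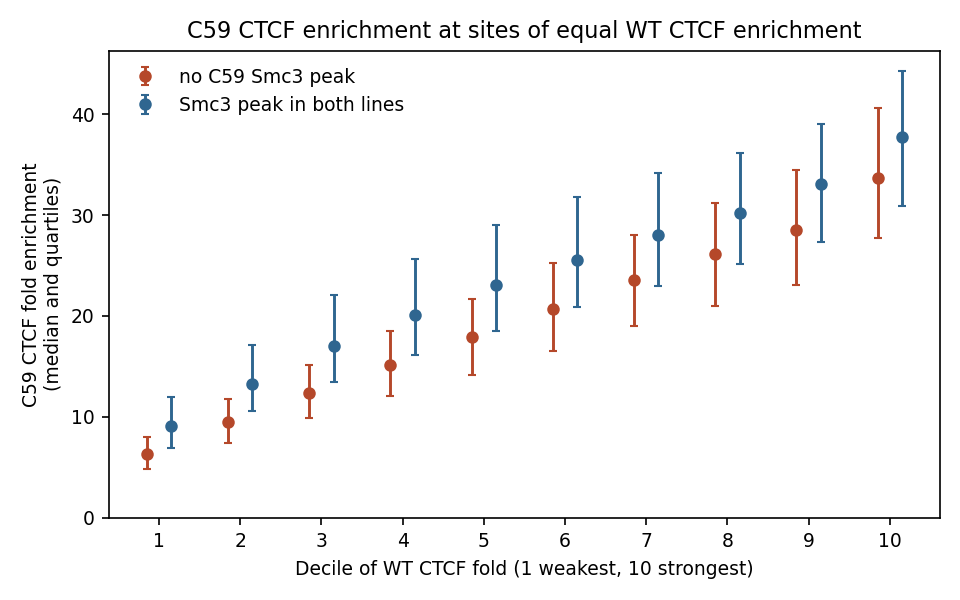
C59 CTCF fold enrichment (vertical axis, the authors' values) by decile of WT CTCF fold (horizontal axis) at sites with no C59 Smc3 peak (red) and with Smc3 in both lines (blue); points are medians and bars run between the quartiles over sites, not over replicates. The red median lies below the blue one in each of the 10 deciles, at 17.9 against 23.1 in the fifth.

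Summits of the overlapping peaks lay close together at most sites that lost Smc3. The rule asks for this overlap, so short distances are in part a result of the selection. Between the CTCF summits of the lines the largest distance was 1944 bp. The C59 and WT CTCF summits lay a median of 17 bp apart (quartiles 7 and 32) at sites that lost Smc3, 12 bp at kept sites and 24 bp at shared sites without Smc3. The WT Smc3 summit lay a median of 31 bp from the WT CTCF summit at sites that lost Smc3 and 24 bp at kept sites. At equal WT Smc3 fold the distances were 42 bp at sites that lost Smc3 and 31 bp at kept sites in the weakest decile, 30 bp and 27 bp in the third, 26 bp and 24 bp in the fifth, 24 bp in both classes in the sixth, and 22 bp and 24 bp in the seventh. The WT Smc3 summit lay outside the CTCF peak at 99 sites.

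A few of the sites met the rule only through the edges of their peaks. At 22 sites the WT Smc3 peak itself overlapped a C59 Smc3 peak beyond the CTCF peak. Such sites filled the top of the ranking, as 11 of the 22 sites in the strongest WT Smc3 decile and 8 of the 10 with the highest WT Smc3 fold were of this kind. Nearest to 1600014C23Rik, Mat2a (which makes S-adenosylmethionine), Ppp1r9a and Epcam (an adhesion molecule), the WT Smc3 folds were 17.2, 16.9, 16.2 and 15.5, with a C59 Smc3 peak 547, 384, 354 and 134 bp from the CTCF peak. Their WT Smc3 summits lay 604 to 1153 bp from the WT CTCF summit, so the cohesin summit there stood beside the WT CTCF peak and not on it. The same held for sites nearest to Dsel on chromosome 1, Vav2, Heatr4 and Iyd, with WT Smc3 folds of 15.7, 14.4, 14.3 and 13.6. At 1600014C23Rik, Ppp1r9a, Dsel and Heatr4 the C59 CTCF summit too lay far from the WT one, by 1094, 613, 794 and 736 bp. The C59 CTCF folds there were 34.95, 46.14, 18.53 and 23.88, so strong C59 CTCF lay away from the weak WT CTCF peak. At Mat2a, Epcam, Vav2 and Iyd the CTCF summits of the lines were 5, 33, 88 and 23 bp apart. Just inside the rule, sites nearest to Eme1, Vav2, B3gnt2 and Spsb2 lay 11, 25, 42 and 55 bp from a C59 Smc3 peak. Just outside it, sites nearest to Epha4, Taf12, Acsbg3, Ube2m and Zfp982 overlapped one by 2, 22, 29, 40 and 106 bp. Within 1 kb, a C59 Smc3 peak stood near 684 sites (3.86%), and the median gap was 18099 bp.

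With these edge overlaps left out, the highest WT Smc3 fold among the sites lay at Akt1, a kinase gene of growth factor signalling. The CTCF peak at chr12:112674906-112676272, with its summit 599 bp from a gene end, had a CTCF fold of 27.7 in C59 and 55.0 in WT and a WT Smc3 fold of 15.5. Pileups there were 248 for C59 CTCF, 293 for WT CTCF and 80 for WT Smc3, and no C59 Smc3 peak lay within 15387 bp. Akt1 had a kept site at its other end, where the CTCF fold was 34.6 in C59 and 20.8 in WT and the Smc3 fold 4.37 in C59 and 4.47 in WT. By WT Smc3 fold, the C59 list thus held a peak at the weaker cohesin site of the gene and none at the stronger one. The site near Rap1gap, which encodes an activator of the Rap1 GTPase, lay on chromosome 4 between 137733432 and 137733968, outside genes. Its CTCF fold was 9.49 in C59 and 17.8 in WT, with a WT Smc3 fold of 14.0.

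After these came sites named once their values were seen, to fill the places of the edge overlaps. Abhd16a, a lipid hydrolase gene, had a CTCF fold of 18.8 in C59 and 31.9 in WT and a WT Smc3 fold of 13.6. At Asphd1 the CTCF fold was 16.5 in C59 and 35.9 in WT, and the WT Smc3 fold was 13.3. Inside Zbtb40 the CTCF fold was 16.9 in C59 and 29.2 in WT, and the WT Smc3 fold was 12.9. Each of these CTCF sites stood in a high WT CTCF decile and a middle C59 CTCF decile, the eighth to the strongest against the fourth and the fifth. The site near Eif4e3, with 23.4 in C59 and 21.8 in WT beside a WT Smc3 fold of 12.8, stood in the sixth decile of both lists.

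Sites with strong CTCF lost Smc3 less often than weak ones, but some did. The share lost was 95.7% in the weakest and 9.02% in the strongest decile of C59 CTCF fold, and 91.8% and 12.5% in those of WT CTCF fold. The 10 sites with the highest WT CTCF fold had WT folds of 52.4 to 56.8, C59 CTCF folds of 27.7 to 58.1 and WT Smc3 folds of 4.20 to 15.5. Inside Kif14, a kinesin gene of cytokinesis on chromosome 1, the CTCF fold was 35.7 in C59 and 56.8 in WT beside a WT Smc3 fold of 4.20. Foxj2, a forkhead factor gene, held a site with 40.2 in C59 and 56.4 in WT and a WT Smc3 fold of 6.95. Clstn3 and Gnai2, which encode a calsyntenin and an inhibitory G protein subunit, had nearby sites with WT Smc3 folds of 11.1 and 11.6. Most of the 10 had modest WT Smc3, and 4 of them were above 11. The promoter site of Dnm1 shown above reached 57.9 in C59 and 52.8 in WT with a WT Smc3 fold of 5.84 and a WT Smc3 summit 2 bp from that of CTCF. The sites at Them6 and Sh3gl1, an endophilin gene, had CTCF folds of 54.8 and 30.2 in C59, 53.5 and 53.4 in WT, and WT Smc3 folds of 5.34 and 5.33. The sites nearest to Dtnb and Col26a1, the genes of a dystrobrevin and a collagen, had C59 CTCF folds of 32.0 and 58.1 and WT Smc3 folds of 5.48 and 11.1.

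Sites that lost Smc3 lay at gene ends slightly more often than kept sites. A protein-coding gene end lay within 1 kb of the CTCF summit at 9.90% (9.47 to 10.4) of sites that lost Smc3, 8.12% (7.78 to 8.47) of kept sites and 9.73% (9.42 to 10.0) of shared sites without Smc3. A further 49.0% lay inside a gene and 41.1% outside, against 41.6% and 50.3% of kept sites. The difference was at starts, which lay within 1 kb of 6.27% (5.92 to 6.65) of sites that lost Smc3, 4.06% (3.81 to 4.32) of kept sites and 6.99% of sites without Smc3, whereas the opposite ends stood at 2.44%, 2.75% and 1.97%.

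The difference was widest among the strongest C59 CTCF sites. In the top C59 CTCF decile 30.6% (26.0 to 35.5) of the 376 sites that lost Smc3 lay at a gene end, against 11.6% (10.6 to 12.7) of 3794 kept sites, while in the weakest it was 9.32% (8.44 to 10.3) against 12.8% (8.28 to 18.6). Above the lower bound of that top decile, a C59 CTCF fold of 39.2, 33.9% (25.6 to 42.9) of 124 shared sites without Smc3 lay at a gene end as well. Starts accounted for 22.1% of sites that lost Smc3, 6.79% of kept sites and 27.1% of sites without Smc3 in this range. Read the other way, strong CTCF sites at gene ends lost Smc3 at 20.7% (17.4 to 24.3), against 7.22% (6.4 to 8.11) elsewhere. Over lost and kept sites of this decile together, the median WT Smc3 fold was lower at gene ends, at 8.38 against 9.89 elsewhere. The part of this in the shares lost was not tested. At equal WT Smc3 fold the shares lost were close, with 63.8% at gene ends and 63.9% elsewhere in the fourth decile and 50.0% and 47.8% in the fifth, although CTCF in C59 was stronger at the gene ends, with median folds of 21.1 against 16.9 in the fourth. Only in the strongest decile did the intervals part, with 6 of 327 (0.676 to 3.95%) against 16 of 3843 (0.238 to 0.675%), and edge overlaps made up 11 of those 22 sites.

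**Figure D3:**
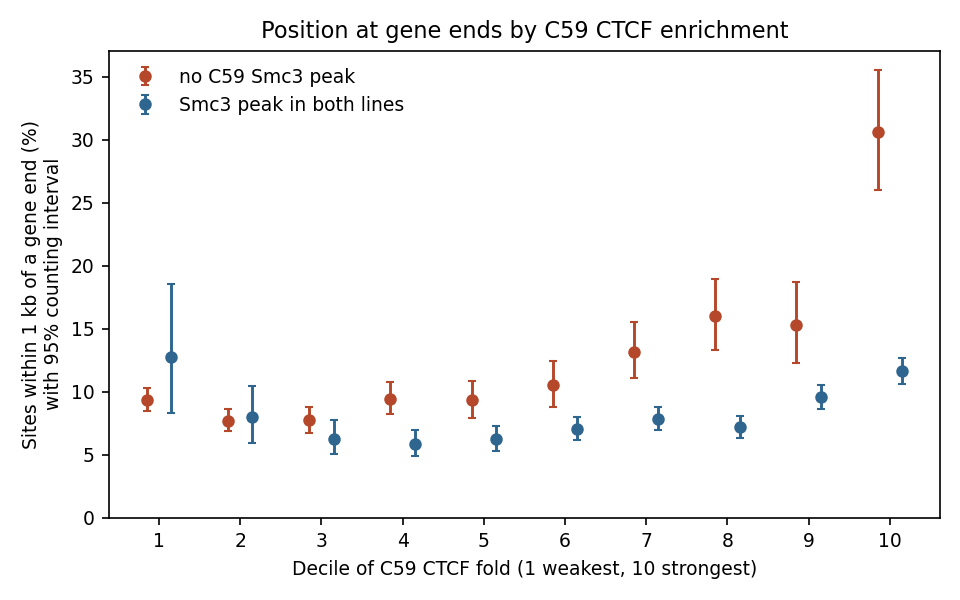
Percent of sites with the CTCF summit within 1 kb of a protein-coding gene end (vertical axis) by decile of C59 CTCF fold (horizontal axis), at sites with no C59 Smc3 peak (red) and with Smc3 in both lines (blue), with exact 95% counting intervals. The classes part from the fourth decile on, to 30.6% against 11.6% in the strongest.

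Gene by gene, a site that lost Smc3 lay within 1 kb of an end of 1889 of 20665 protein-coding genes (9.14%), and a kept site at 2069 (10.0%), with 166 genes having both. Among 19 genes of the cohesin and CTCF machinery, 4 had a site that lost Smc3 and 0 a kept one. At Esco1, a cohesin acetyltransferase gene, the CTCF fold was 62.8 in C59 and 49.3 in WT and the WT Smc3 fold 6.05. At Smc3 itself the folds were 26.1 in C59 and 23.3 in WT for CTCF, with 4.62 for WT Smc3. Espl1, which encodes separase, and Wapl, the cohesin release factor, had weak sites with WT Smc3 folds of 3.68 and 3.57. Counts of 4 genes give no rate, and nothing particular to the list follows from them.

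Among 23 pluripotency genes, 5 had a site that lost Smc3 and 1, Tdgf1, a kept one. At Tbx3, a T-box factor gene of the naive state, the CTCF fold was 13.5 in C59 and 17.4 in WT and the WT Smc3 fold 6.10. Nodal, which encodes a TGF-beta family signal, had CTCF folds of 13.1 in C59 and 18.4 in WT and a WT Smc3 fold of 5.70. Lefty1, the gene of a Nodal antagonist on chromosome 1, had CTCF folds of 26.0 in C59 and 18.9 in WT and a WT Smc3 fold of 3.94. The sites at Tfcp2l1, also on chromosome 1, and Klf4 were weaker, with WT Smc3 folds of 3.53 and 2.80. All 5 lay in the weaker deciles of WT Smc3, from the weakest to the fifth, as did most sites that lost Smc3. Over all of those the upper quartile of WT Smc3 fold was 5.43, and the fifth decile ended at 6.2.

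Of 22 cell cycle and p53 genes, 4 had sites that lost Smc3 and 5 had kept ones. Myc, the growth regulator, had 2 sites that lost Smc3. The stronger had a CTCF fold of 12.7 in C59 and 14.3 in WT and a WT Smc3 fold of 7.21, and a C59 Smc3 peak stood 932 bp away. The kept sites at its relatives Mycl and Mycn had WT Smc3 folds of 24.8 and 22.6. Those at Trp53 on chromosome 11, Cdkn2b and Ccna2 had 19.8, 9.11 and 4.43. The kept site at Ccna2 thus had less WT Smc3 than the stronger site that lost Smc3 at Myc. Mdm2, the gene of the p53 ubiquitin ligase, lost Smc3 at a site with CTCF folds of 16.7 in C59 and 21.9 in WT and a WT Smc3 fold of 5.14, and Cdk2 at one with a WT Smc3 fold of 4.43. In growth factor and mTOR signalling 5 of 27 genes had sites that lost Smc3 and 2 had kept ones. Beside Akt1 these were Akt2, Tsc2, Tsc1 and Map2k1, with WT Smc3 folds of 4.92, 4.58, 4.41 and 3.87.

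At 39 Hox genes, 3 had sites that lost Smc3 and 5 kept ones. Hoxc10 had CTCF folds of 41.7 in C59 and 45.1 in WT beside a WT Smc3 fold of 6.62, and Hoxa10 had 42.7 and 45.3 beside 6.41. A second site at Hoxc10 was weaker, with CTCF folds of 10.8 in C59 and 14.8 in WT and a WT Smc3 fold of 5.18. At Hoxd11 the CTCF fold was 24.7 in C59 and 24.4 in WT, and the WT Smc3 fold was 3.47. The 4 kept Hox sites had WT Smc3 folds of 7.32 (Hoxa5 and Hoxa6), 10.3 (Hoxb8), 13.7 (Hoxb5) and 18.7 (Hoxc5), all above those of the sites that lost Smc3, and Hoxb5 and Hoxb8 lie on chromosome 11. Ribosomal protein genes had sites that lost Smc3 at 10 of 31 and kept sites at 6. Rps19, Rplp0 and Rpl13 led them with WT Smc3 folds of 6.05, 5.68 and 4.64, Rpl13 lies on chromosome 8, and the CTCF fold at Rplp0 was 40.8 in C59 and 40.1 in WT. Of 23 imprinted genes, 1 (Cdkn1c, WT Smc3 fold 2.91) had a site that lost Smc3 and 5 had kept ones, and of 21 lineage factor genes 0 and 3 did.

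The clustered protocadherin genes, whose promoters CTCF and cohesin join to distant enhancers, had the highest share of the 9 lists, with a site that lost Smc3 at 32 of 57 genes and a kept site at 32. Distinct sites numbered 32 that lost Smc3 and 20 that were kept, since 1 kept site at the shared end of the gamma cluster served many genes. By cluster, 8 alpha, 13 beta and 11 gamma genes had a site that lost Smc3. CTCF there was strong, with a median fold of 24.0 in C59 (5.56 to 40.8) and 25.6 in WT (10.4 to 41.8), close to the 27.8 and 25.8 of the kept sites. WT Smc3 was weak, with a median fold of 4.20 (2.55 to 6.49) against 5.77 (3.97 to 12.6) at kept sites. Pcdhgc3, Pcdhb17 and Pcdhgb2 had the highest WT Smc3 folds among those lost, at 6.49, 6.36 and 5.65, and CTCF folds of 5.56, 21.2 and 20.8 in C59 and 10.4, 29.0 and 26.6 in WT. These genes are near copies of each other, and the placement of reads that match several copies is not stated in the labels.

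The longest unbroken run of sites that lost Smc3 lay in this locus. In the gamma cluster, 13 successive shared sites with WT Smc3, over 72.3 kb of chromosome 18, had none in C59, with C59 CTCF folds of 5.91 to 40.8 and WT Smc3 folds of 2.55 to 6.91. The next longest runs, of 11 sites, numbered 4. One spanned 109 kb from Atad5 to Rnf135 on chromosome 11, with a median WT Smc3 fold of 3.68. Others covered 1184 kb around the Cyp3a genes on chromosome 5, with a median WT Smc3 fold of 4.07, and 269 kb around Egln1 and Disc1 on chromosome 8, with 4.76. Across the genome runs were short, and 5579 consisted of 1 site. As 42.5% of all 41703 sites had lost Smc3, some long runs would also arise among independent neighbours. Whether the runs named here were longer than that was not tested. After a site that lost Smc3 the next shared site with WT Smc3 along the chromosome had lost it too at 44.6% (43.8 to 45.3), and after a kept site at 41.0% (40.4 to 41.6). By distance to the next site the shares were 43.8% (42.0 to 45.6) against 40.7% (39.2 to 42.2) at 0 to 5 kb, 44.4% against 41.0% at 5 to 20 kb, 46.3% against 42.1% at 20 to 100 kb, and 40.6% (38.6 to 42.7) against 38.3% (36.7 to 39.99) beyond 100 kb. The intervals overlapped at 0 to 5 kb and beyond 100 kb.

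Chromosomes differed in the share that lost Smc3. It was 31.5% (29.8 to 33.2) on chromosome 1, 36.0% (34.4 to 37.6) on chromosome 11 and 49.0% (47.0 to 51.1) on chromosome 8, while the other 16 ranged from 41.2% to 47.3%. At equal weight of the WT Smc3 deciles the 3 values were 31.0%, 34.2% and 47.5%, with 41.6% to 46.7% on the others. The local background of the peaks also differed on chromosomes 1, 8 and 11. Relative to all other autosomes, that of Smc3 peaks was 1.41 in C59 and 1.00 in WT on chromosome 1, 1.47 and 1.25 on chromosome 11, and 0.890 and 1.5 on chromosome 8, against 0.889 to 0.891 in C59 and 0.960 to 0.962 in WT on the other 16. The background of CTCF peaks was 1.36 in C59 and 1.00 in WT on chromosome 1, 1.45 and 1.19 on chromosome 11, and 1.00 and 1.36 on chromosome 8, against 0.95 to 1.00 in C59 and 0.888 to 0.996 in WT on the others. Fewer sites lost Smc3 on chromosomes 1 and 11, where the C59 Smc3 background was the more raised. The share was highest on chromosome 8, where only the WT one was raised. Its interval overlapped those of other chromosomes, such as chromosome 12 (44.8 to 49.8). The part of the background in the result was not tested, and genes named here on these chromosomes share this limit.

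**Figure D4:**
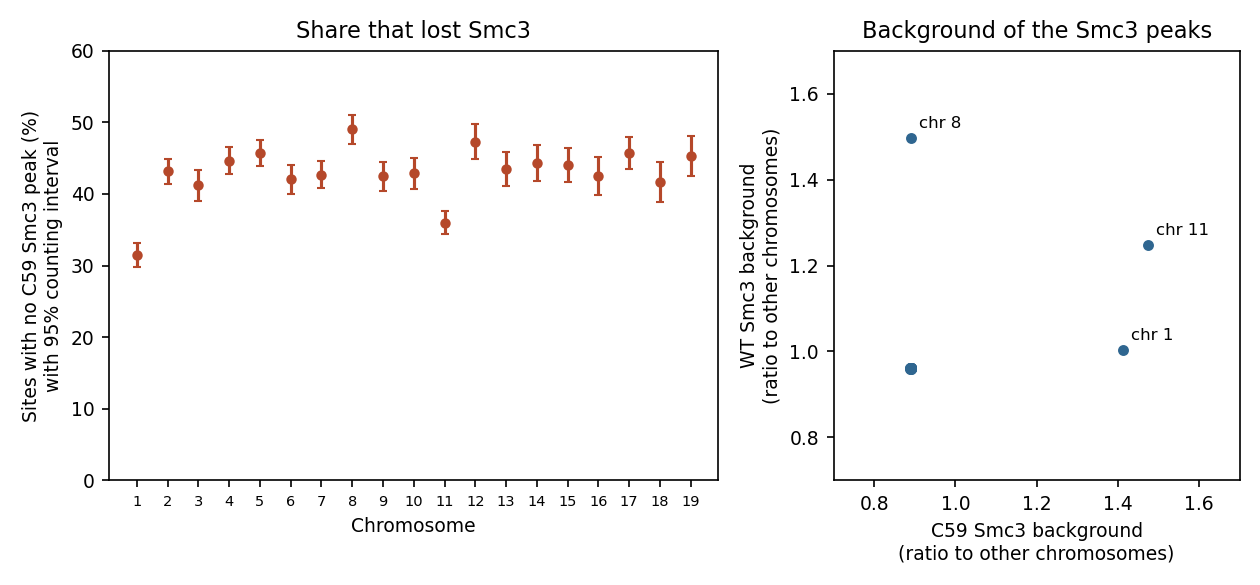
Left, percent of shared CTCF sites with WT Smc3 that had no C59 Smc3 peak on each numbered autosome, with exact 95% counting intervals. Right, median background at Smc3 peaks of each chromosome as a ratio to the other autosomes, in C59 (horizontal axis) and WT (vertical axis). Chromosomes 1 (31.5%) and 11 (36.0%) stand apart on both sides. Chromosome 8 (49.0%) stands apart on the right, while on the left its interval overlaps that of chromosome 12 (47.3%). The other 16 backgrounds fall on nearly 1 point.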

How the data were processed

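ChIP-seq peak lists of CTCF and Smc3 from C59 and WT cells (1 library each) were compared by position. The submitters' processing notes list, without role or order, MACS2 2.1.0.20140616, Bowtie 0.12.8, deepTools 2.4.1, FastQC 0.10.1 and CASAVA, and the build mm10. The control library and threshold are not given in the sources used here. The pileup signal, the p-value and q-value (on a linear scale) and the fold enrichment, a ratio to local background, are the authors' deposited values per peak, as are positions and lengths in bp. The largest deposited q-values were 0.0374 and 0.0490 in C59 CTCF and Smc3 and 0.0495 and 0.0474 in WT CTCF and Smc3. Peaks had passed the authors' own threshold, so weak binding is missing from every list.

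Local background was taken from each peak's own values, by dividing pileup plus 1 by the fold and subtracting 1. Relative depth was the lowest background divided by the step between pileup values, which assumes like fragment length and genome size in all lists. A site that overlapped several peaks of a list took the value of the strongest by fold. Deciles were cut over the 41703 shared sites with WT Smc3. Gene ends came from the RefSeq table of GRCm38.p6, which has the chromosomes of mm10, and starts and promoter sequences from its promoter table. No genome sequence was used, so motifs were searched in promoters alone. Python 3.11.15, numpy 2.4.6, pandas 2.3.3, scipy 1.17.1 and matplotlib 3.10.9 were used, and the overlap code was tested on simulated peaks.

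Named were the 10 sites with the highest WT Smc3 fold, the 10 with the highest WT CTCF fold, up to 3 genes of each list by WT Smc3 fold and the longest runs, each by its nearest protein-coding gene end. Further genes were added to complete small counts, and the promoters shown as sequence were picked after their values were seen. The sites, gene lists and comparisons were chosen with earlier results of these data known. Alternatives covered the overlap rule, the q threshold, list length, chromosomes 1, 8 and 11, a margin around the peak, the gene end window and the motif letters. Some items that the naming rule picks are not reported here.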

Additional observations from a re-analysis of the deposited data

How the results depend on the processing

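Of 57 values under alternative settings, 30 stayed within the counting interval of the reported one (for the number of sites, within 1.5 times) and 27 did not. Holding each list to the 25734 peaks of lowest p-value, with ties ordered by fold, moved every value. Then 1658 sites met the rule, 8.96% of shared sites with WT Smc3. Of these, 14.5% lay at a gene end (8.80% of kept sites), and 14.5% of next sites had also lost Smc3 (8.42% after kept ones). The promoter string stood in 20.5% of 73 sites. The median distances were 22.5 bp from CTCF to Smc3 summit and 10 bp between CTCF summits. Asking for overlap of 50% of both peaks gave 68.0% lost, 8.51% at a gene end, distances of 26 and 14 bp, 70.1% of next sites lost and 15.8% with the string. A minus log10 q of at least 10 gave 49.0%, 9.08%, 25 and 13 bp, 51.6% and 16.0%, and one of at least 5 a distance of 28 bp to the Smc3 summit. Without chromosomes 1, 8 and 11 the share lost was 43.7% and that of next sites 45.4%, and with no C59 Smc3 peak within 1 kb the share lost was 40.9%. Gene end windows of 500 and 2500 bp gave 6.11% and 18.5%. The full core gave 14.6% and the looser letters 31.8%. Leaving out the edge overlaps, chosen after seeing the data, gave 17707 sites and 42.5%. Sites that lost Smc3 lay at gene ends more often than kept sites, and had a higher share of lost next sites, under each of the 7 settings that redrew the sites. The wider margin lowers the share lost by construction. The C59 Smc3 list holds 25734 peaks, so the equal number cut only the other lists, and the number of sites could only fall. Under the 50% rule a C59 Smc3 peak with less overlap counted as absent, so sites kept under the main rule could count as lost. The part of this in the shares, and the cause for the other settings, was not tested. No paired analysis was possible because each line gave 1 library per protein. Binding below the authors' threshold is in none of these counts.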
